A study of Mus musculus with 18 samples.

Results

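The late response to tunicamycin was followed in mouse melanoma cells that overexpressed LIP, by comparing cells given doxycycline and then tunicamycin for 12 h with cells given doxycycline alone. Tunicamycin blocks the first step of N-linked glycosylation, so that glycoproteins misfold in the endoplasmic reticulum (ER). LIP is the short form of the transcription factor C/EBPβ, encoded by Cebpb, which binds DNA but lacks the activation domain of the longer forms. The comparison takes in 6 of the 18 arrays of the series and 19938 genes, each read by its brightest probe set with 1 gene symbol.

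The cells were B16 F10.9-4, a line of the B16 mouse melanoma. In the doxycycline and tunicamycin 12 h group (3 arrays), LIP had been switched on by doxycycline before tunicamycin was added, and cells were collected 12 h later. The doxycycline group (3 arrays) had the same induction and was collected at 0 h, without tunicamycin. Set beside these are cells given doxycycline and tunicamycin for 5 h, cells given tunicamycin for 12 h or 5 h without doxycycline, and vehicle cells at 0 h, with 3 arrays each. Arrays are numbered 1 to 3 in every group, and those that share a number are read here as 1 experiment. The labels give no dose and no 12 h sample without tunicamycin, so 12 more hours in culture and tunicamycin cannot be told apart, nor can doxycycline and LIP. All groups come from a single line, and the transgene and its promoter are not described in the labels.

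Array medians lay between 7.32 and 7.42 on the log2 scale and arrays of a group correlated at r of 0.997 or more. No detection calls were used, and 1190 receptor genes of smell and pheromone sensing stood in for silent genes, with a median level of 4.76 and a 95th percentile of 6.11. The Cebpb probe set, which does not separate LIP from the longer forms, averaged 11.18 in doxycycline cells and 9.33 in vehicle cells. All 7 melanocyte markers checked (Mitf, Sox10, Tyr, Tyrp1, Dct, Pmel, Mlana) were above the silent level, whereas 10 of 20 markers of immune, epithelial, endothelial and fibroblast cells were at or below it on all 6 arrays, among them Ptprc, Epcam, Kdr and Dcn. Of the others Cd68, of macrophages, averaged 7.37 in tunicamycin-treated cells against 7.93 in cells given doxycycline alone (adjusted p = 8.6e-05). The fibroblast markers moved both ways: Col1a1 averaged 8.04 against 7.74 (adjusted p = 0.00337) and Pdgfra 6.14 against 6.38 (adjusted p = 0.00335). Dcn, Lum and Thy1 did not pass. The summed level of the melanocyte markers was 15.10 to 15.16 in tunicamycin-treated cells and 15.32 to 15.33 in cells given doxycycline alone. Summed levels of the immune markers were 8.69 to 8.73 against 8.90 to 9.02, of the epithelial markers 8.38 to 8.45 against 8.46 to 8.54, of the endothelial markers 7.70 to 7.77 against 7.74 to 7.77, and of the fibroblast markers 8.84 to 8.97 against 8.78 to 8.81. Their part in the results was not tested. RNA was taken from whole cultures, so fewer cells of a kind and less RNA per cell cannot be told apart.

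Misfolded protein in the ER is sensed by 3 membrane proteins that start the unfolded protein response. IRE1 (Ern1) splices the mRNA of Xbp1, ATF6 is cut in the Golgi to release a transcription factor, and PERK (Eif2ak3) phosphorylates eIF2α, which slows translation while ATF4 and then CHOP (Ddit3) are made. XBP1 and ATF6 drive genes of folding, degradation and transport in the ER, and ATF4 drives genes of amino acid supply and of cell death.

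Of the 19938 genes tested, 5971 differed between the groups (limma, Benjamini-Hochberg adjusted p threshold of 0.05): 2667 were higher (13.4%) and 3304 lower (16.6%) after 12 h of tunicamycin. Most of these changes were small, with a median size of 0.32 on the log2 scale, and 75.8% were under 0.5. The arrays of both groups did not overlap in 5830 of the 5971, so a lack of overlap is the rule among genes that passed. Changes of at least 2-fold were mostly rises: 164 genes were higher by that much (0.823%) and 51 lower (0.256%). Among the 164, 36 belonged to the lists for ER folding, degradation, glycosylation, transport, calcium and shape, which together hold 270 of all genes, and 20 to the lists for stress signalling, amino acid supply and tRNA charging, which hold 102. Among the 51 that fell, 6 were on the lists for replication, mitosis and cell cycle inhibitors, which hold 127 of all genes, 3 on the lists for sterol and lipid synthesis, which hold 48, and 0 on the secretory lists. The median change of all genes was −0.02, and setting all array medians equal turned the split of the calls to 2957 higher and 2680 lower.

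The upstream sequences of the 4 genes with the largest rises that hold a searched motif are shown first, because known binding motifs of the response lie in them. They are the 250 bases before the annotated start (RefSeq, GRCm38.p6), 5′ to 3′ on the gene's strand, with motif matches in capitals. Ero1b lies at chr13:12565633-12565882 (plus strand), Slc7a11 at chr3:50443614-50443863 (minus strand), Herpud1 at chr8:94386179-94386428 (plus strand) and Sec24d at chr3:123267246-123267495 (plus strand).
Ero1b: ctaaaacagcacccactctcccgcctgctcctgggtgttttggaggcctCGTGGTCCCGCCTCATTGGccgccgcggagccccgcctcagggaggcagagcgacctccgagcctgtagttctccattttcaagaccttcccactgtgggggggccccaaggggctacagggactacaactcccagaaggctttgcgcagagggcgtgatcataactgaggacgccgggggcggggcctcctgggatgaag
Slc7a11: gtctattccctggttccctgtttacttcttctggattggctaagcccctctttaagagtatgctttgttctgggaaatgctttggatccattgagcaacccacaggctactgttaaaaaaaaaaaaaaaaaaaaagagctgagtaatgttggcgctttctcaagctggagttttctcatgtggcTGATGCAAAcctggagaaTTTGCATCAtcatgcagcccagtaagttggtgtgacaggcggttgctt
Herpud1: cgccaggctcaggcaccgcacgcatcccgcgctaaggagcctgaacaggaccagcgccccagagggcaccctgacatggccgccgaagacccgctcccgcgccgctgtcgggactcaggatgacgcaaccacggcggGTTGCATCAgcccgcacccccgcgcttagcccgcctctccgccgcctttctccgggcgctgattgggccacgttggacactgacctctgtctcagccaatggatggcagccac
Sec24d: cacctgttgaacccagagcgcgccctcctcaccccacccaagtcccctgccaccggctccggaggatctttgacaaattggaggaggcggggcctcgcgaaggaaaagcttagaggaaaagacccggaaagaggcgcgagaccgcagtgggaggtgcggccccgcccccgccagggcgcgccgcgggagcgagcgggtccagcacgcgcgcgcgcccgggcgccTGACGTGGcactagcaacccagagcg
Ero1b holds the ER stress response element (CCAAT, any 9 bases, CCACG) on the opposite strand, 201 bases before its start. Slc7a11 holds the C/EBP-ATF composite element (TGATGNAAN) once on each strand, 66 and 48 bases before the start, and Herpud1 holds it on the opposite strand at 113 bases. Sec24d holds TGACGTGG, part of the unfolded protein response element, 26 bases before the start. The reverse complement of TGACGTGG begins with the CCACG that ends the ER stress response element, so these can overlap.

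The ER stress response element was found, on either strand, in 37 of 27025 genes with a RefSeq promoter window, from 250 bases before to 50 after the start (0.137%). Among measured genes the share was 0.135%. It was found in 7 of 139 genes (5.04%) at least 2-fold higher, in 8 of 49 genes (16.3%) of the ER folding lists, and in 0 of 45 genes at least 2-fold lower. The matches in genes named here are shown, read on the strand that carries the element, because they differ only in the 9 bases between the boxes. Creld2 and Alg12 are neighbours that share the same match.
Ero1b: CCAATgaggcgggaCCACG
Hspa5: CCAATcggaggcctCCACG
Creld2 and Alg12: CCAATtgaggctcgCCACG
Syvn1: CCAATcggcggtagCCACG
Dnajc3: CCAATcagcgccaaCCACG
Pdia6: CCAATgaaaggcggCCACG
Zfp57: CCAATgcctgaatgCCACG
The composite element TGATGNAAN was commoner, in 4.5% of all genes with a promoter window and in 3.59% of the measured ones. It was found in 9 of 30 targets of PERK, ATF4 and CHOP (30%), in 10 of 139 genes at least 2-fold higher (7.19%) and in 4 of 45 at least 2-fold lower (8.89%). Chac1, Slc1a4 and Tars carry it as TGATGcAAc, Atf3 as TGATGcAAg, Nupr1 as TGATGcAAt and Trib3 as TGATGtAAa. TGACGTGG was found in 0.714% of all genes with a window and in 0.912% of the measured ones. It was found in 7 of 139 genes at least 2-fold higher (5.04%), among them Kdelr3, Txndc11 and Vegfa. Around the Vegfa match the letters also read as protein code, so that window may not lie upstream of the gene. A match describes the letters of the window and was not tested for binding.

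The largest fitted rise was that of Ogn, which encodes osteoglycin, a small proteoglycan of the extracellular matrix. Its levels were 8.75, 8.52 and 8.88 in tunicamycin-treated cells, against 5.03, 5.16 and 5.11 in cells given doxycycline alone (fitted log2 change 3.62 ± 0.10 SE, adjusted p = 1.04e-14). Without tunicamycin Ogn was within the range of the silent genes, so the size of its rise and its rank are not fixed, and its treated mean was 6.08-fold above the silent 95th percentile. Ero1b, an oxidase that passes disulfide bonds to protein disulfide isomerases, was at 10.34, 10.52 and 10.62 with tunicamycin and at 6.94, 7.18 and 7.09 without it, a 10.7-fold difference (adjusted p = 9.4e-15). Nucb2, a calcium-binding protein, stood at 11.09, 11.08 and 11.20 against 8.13, 8.13 and 8.12 (8.01-fold). For these genes the lowest treated array was far above the highest array without tunicamycin. Hey2, a repressor of the Notch pathway, averaged 8.37 against 5.69, and Elovl3, a fatty acid elongase, 8.30 against 5.84, and both came up out of the silent range, to 4.80-fold and 4.56-fold above its 95th percentile. Zfp57, a zinc finger protein known for keeping genomic imprints in the embryo, was at 9.86, 9.69 and 10.07 with tunicamycin and at 7.43, 7.45 and 7.29 without.

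**Figure D1:**
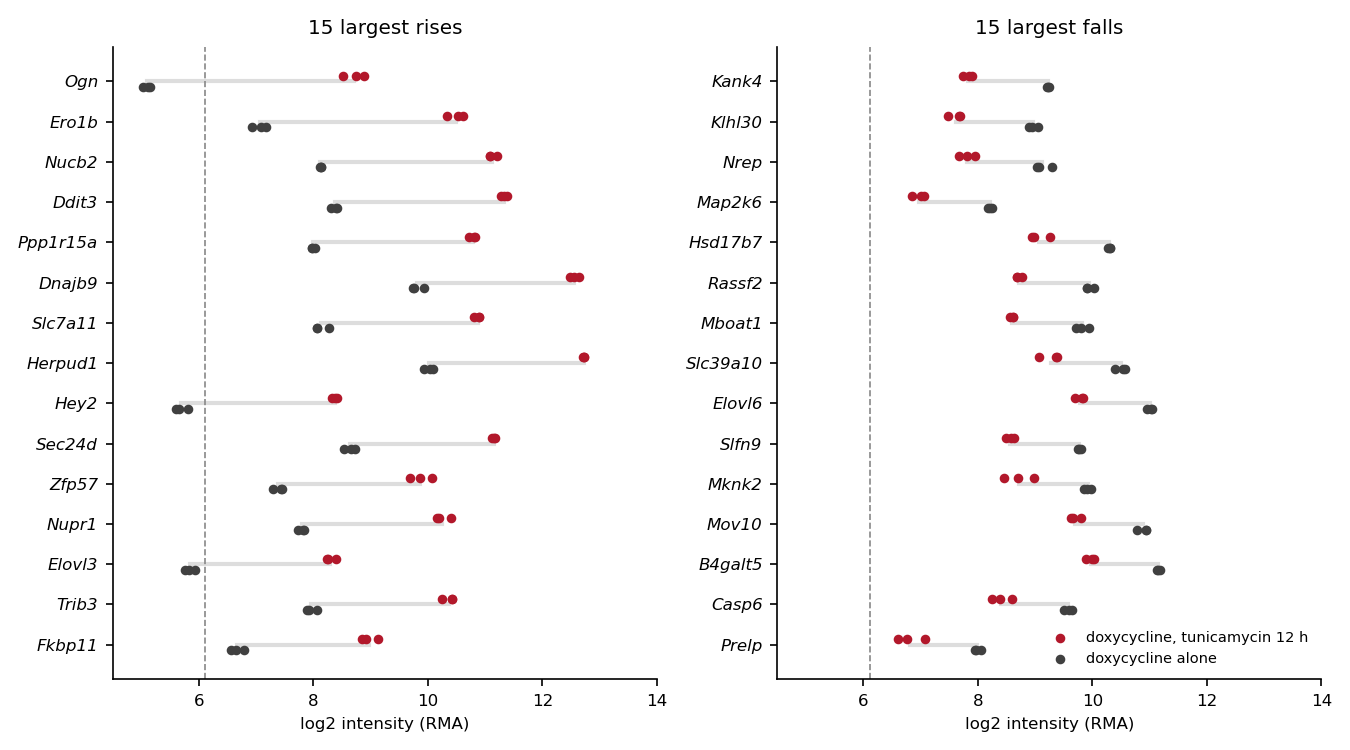
Log2 level on each array (x axis) of the 15 genes with the largest rises and the 15 with the largest falls after 12 h of tunicamycin under doxycycline; red points are the 3 arrays with doxycycline and tunicamycin, grey points the 3 with doxycycline alone, and the dashed line is the 95th percentile of silent genes. In no gene do red and grey points overlap, as in 5830 of the 5971 genes that passed. The largest fitted rise is 3.62, that of Ogn, which starts in the silent range, whereas the largest fall is −1.39, that of Kank4.

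Most members of the list of sensors and transcription factors of the response rose: 11 of 20 were higher and 4 lower, with a median change of 0.31. Its lowest member, Bak1 (−0.47), is neither a sensor nor a factor but a death gene of the BCL2 family. Leaving out experiment 1 or experiment 3 reduced the 4 to 1. Xbp1, whose spliced form drives ER folding genes, stood at 12.32, 12.32 and 12.33 with tunicamycin and at 11.06, 10.96 and 11.01 without, a 2.48-fold difference (log2 change 1.31 ± 0.06 SE, adjusted p = 9.9e-12). Its probe set does not separate spliced from unspliced mRNA. Atf6 was at 11.75, 11.84 and 11.87 against 10.54, 10.44 and 10.54 (1.32 ± 0.06, adjusted p = 1.97e-12). All 3 treated arrays of both genes were above all 3 others. The kinases rose too, Eif2ak3 by 0.98 ± 0.05 (adjusted p = 3.3e-11) and Ern1 by 0.97 ± 0.06 (adjusted p = 3.33e-10). Atf4, which is controlled largely at the level of translation, rose less, to 10.92, 10.95 and 10.95 against 10.19, 10.12 and 10.12 (0.80 ± 0.06, adjusted p = 5.33e-09). Atf5, a relative of ATF4, rose by 1.31.

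The ER chaperones and co-chaperones rose nearly as a whole: 24 of 29 were higher and 1 lower, with a median of 0.63 over all arrays and of 0.63, 0.59 and 0.61 within the 3 experiments. Hspa5, which encodes BiP, the main chaperone of the ER lumen, was already bright before treatment. It stood at 13.63, 13.50 and 13.62 with tunicamycin and at 12.64, 12.72 and 12.70 without, a 1.87-fold difference (log2 change 0.90 ± 0.05 SE, adjusted p = 8.65e-11). Larger changes came from the partners of BiP. Dnajb9, a J-domain co-chaperone, was at 12.65, 12.48 and 12.55 against 9.76, 9.94 and 9.74 (6.70-fold). Hyou1, a nucleotide exchange factor for BiP, rose by 1.84, Sdf2l1, a component of a BiP complex, by 1.67 and Dnajc3, another J-domain protein, by 1.53. Creld2, a secreted protein with ties to the isomerases, was at 13.11, 13.01 and 13.08 against 11.00, 11.03 and 11.00 (adjusted p = 1.04e-14). Fkbp11, a prolyl isomerase of the ER, rose by 2.30 from a lower level, 8.86, 8.92 and 9.13 against 6.57, 6.79 and 6.64. In each of these genes the groups did not overlap, as in 5830 of the 5971 genes that passed.

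Of the disulfide isomerases and oxidases, 11 of 25 were higher and 3 lower, with a median of 0.14. Among all genes 13.4% were higher and 16.6% lower. The largest rises after Ero1b were those of Pdia5 (1.66), Pdia6 (1.41), Txndc11 (1.12), Pdia4 (0.88) and Erp44 (0.85). Pdia6 averaged 12.45 ± 0.02 with tunicamycin and 11.04 ± 0.06 without (SD, n = 3 each). Ero1a, the paralog of Ero1b, is outside the rule for named genes and was looked up after its values were seen: it averaged 12.34 against 11.51.

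Genes of ER-associated degradation, which moves misfolded proteins to the cytosol for destruction, followed: 28 of 39 were higher and 2 lower (0 without experiment 1), with a median of 0.29. Herpud1, which gathers the ubiquitin ligase complex, was at 12.73, 12.71 and 12.73 with tunicamycin and at 10.04, 9.93 and 10.09 without (6.52-fold, adjusted p = 1.15e-15). The ligase itself, Syvn1, was at 11.56, 11.62 and 11.67 against 9.73, 9.80 and 9.78. Its partner Sel1l stood at 12.40, 12.46 and 12.51 against 10.87, 10.90 and 10.87. The 3 treated arrays of each gene were higher than any array with doxycycline alone. Wfs1, an ER membrane protein tied to calcium and to the degradation of ATF6, rose by 2.19, Selenos by 1.77 and Derl2, a channel component, by 1.15.

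The list of targets of PERK, ATF4 and CHOP had the largest median of the 48 lists, 0.82: 27 of 35 were higher and 1 lower. Ddit3, which encodes CHOP, was at 11.32, 11.38 and 11.28 with tunicamycin and at 8.42, 8.31 and 8.40 without, a 7.74-fold difference (log2 change 2.95 ± 0.08 SE, adjusted p = 1.04e-14). Ppp1r15a, which encodes GADD34, the phosphatase subunit that reverses eIF2α phosphorylation, was at 10.72, 10.81 and 10.82 against 7.98, 7.97 and 8.03 (6.91-fold). Both genes were near 8 in every array with doxycycline alone and near 11 in every array with doxycycline and 12 h of tunicamycin. Trib3, a pseudokinase that binds AKT and ATF4, rose by 2.41 ± 0.09 and Nupr1, a small stress-induced chromatin protein, by 2.45 ± 0.09. Chac1, which breaks down glutathione, was at 10.95, 10.95 and 11.01 against 9.18, 8.99 and 9.16. Rab39b, a small GTPase of vesicle transport, rose by 1.62. Atf3, a repressor of the same family, was at 9.57, 9.77 and 9.72 against 8.81, 8.75 and 8.84 (0.89 ± 0.08, adjusted p = 6.72e-08).

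Genes of amino acid supply rose too: 23 of 28 genes were higher and 2 lower (median 0.60). Slc7a11, the cystine importer that feeds glutathione synthesis, was at 10.90, 10.81 and 10.90 with tunicamycin and at 8.07, 8.06 and 8.27 without (6.65-fold). Slc1a4, a neutral amino acid transporter, rose by 1.97 ± 0.10, Cth, which makes cysteine from cystathionine, by 1.80 ± 0.06 and Slc6a9, a glycine transporter, by 1.44. Aldh1l2, the mitochondrial folate enzyme, was at 10.25, 10.35 and 10.44 against 8.91, 8.88 and 8.91. Groups did not overlap for any of these. Changes were smaller for genes of serine synthesis that lie outside the naming rule and were looked up with their values known: Psat1 changed by 0.20, and Phgdh differed by 0.18 (adjusted p = 0.0689). Of the cytosolic aminoacyl-tRNA synthetases, which charge tRNAs with amino acids, 16 of 21 were higher and 0 lower (median 0.37), led by Wars at 12.30, 12.44 and 12.37 against 11.52, 11.37 and 11.35. Their mitochondrial counterparts had 5 of 16 higher and 1 lower, beside 13.4% and 16.6% of all genes. Their median was 0.01, and Nars2 (0.76) and Ears2 (0.55) led them.

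Genes that build the sugar attached to new glycoproteins, the pathway that tunicamycin blocks, rose in part: 27 of 41 were higher and 4 lower (median 0.31). The 4 became 0 without experiment 1 and without experiment 3. Gmppb, which makes GDP-mannose, was at 8.82, 9.0 and 9.02 with tunicamycin and at 7.19, 7.23 and 7.10 without (1.77 ± 0.08, adjusted p = 3.94e-12). Alg12, a mannosyltransferase, rose by 1.69 and Alg5, which makes the glucose donor, by 1.38. Pgm3 (1.36), Uap1 (1.17) and Gfpt1 (1.12) belong to the hexosamine pathway, which supplies N-acetylglucosamine, the first sugar of the chain. All 3 treated arrays of Gfpt1, at 11.24, 11.34 and 11.28, were above the 10.11, 10.15 and 10.24 of the others.

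Entry to and exit from the ER rose together with folding. In the translocon and signal peptide list 26 of 31 were higher and 2 lower (1 without experiment 3), with a median of 0.43. The largest rises were modest: Srprb, a subunit of the receptor that docks ribosomes, by 0.83, Spcs3, of the signal peptidase, by 0.79 and Sec63, which links the translocon to BiP, by 0.76. In the list of COPII, COPI and Golgi transport 44 of 52 were higher and 1 lower (0 without experiment 3), with a median of 0.45. Sec24d, a cargo adaptor of COPII vesicles, was at 11.16, 11.18 and 11.13 with tunicamycin and at 8.66, 8.54 and 8.73 without (5.69-fold, adjusted p = 2.27e-15). Kdelr3, a receptor that returns chaperones to the ER, stood at 10.42, 10.42 and 10.58 against 8.98, 8.71 and 8.83. Arfgap3 (1.51), Tmed3 (1.42), Bet1 (1.38) and Uso1 (1.25) act in vesicle budding, cargo selection or docking.

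**Figure D2:**
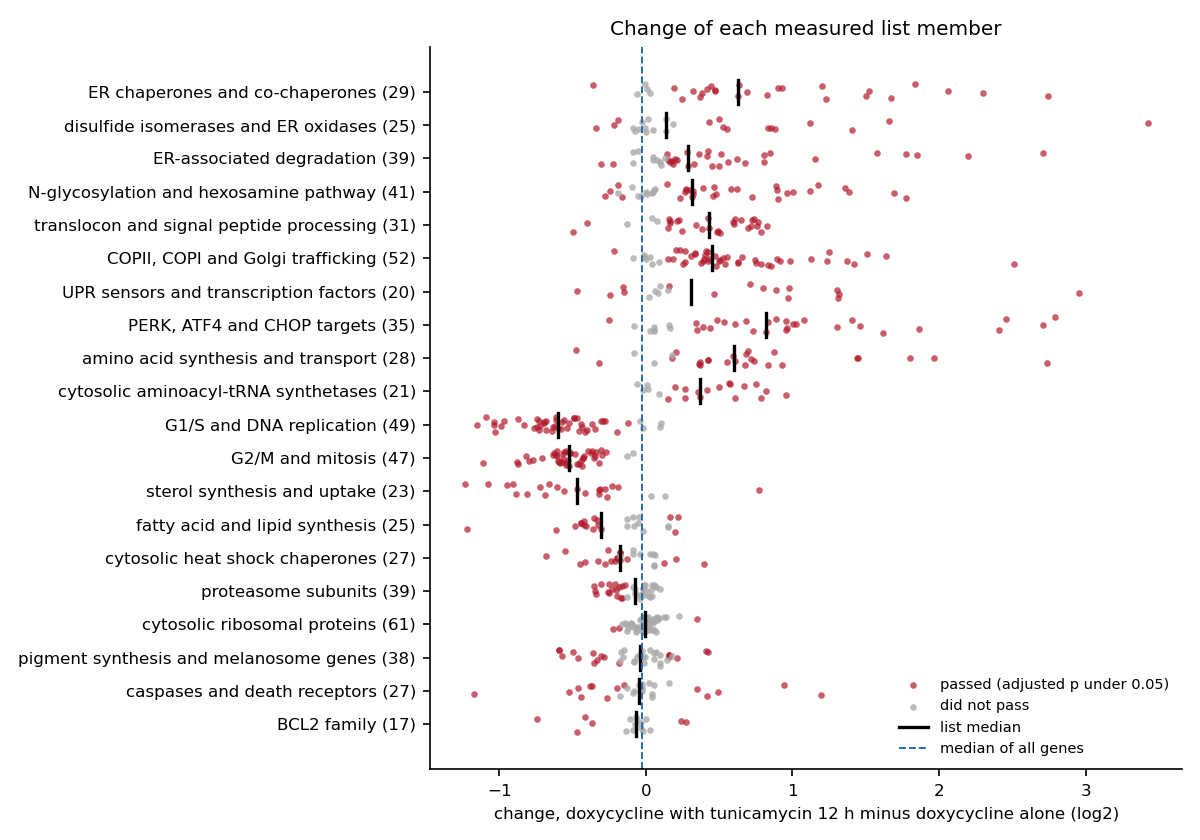
Log2 change after 12 h of tunicamycin under doxycycline (x axis) of each measured member of 20 gene lists; points are genes, the bar is the list's median and the dashed line is the median of all genes, −0.02. The lists of PERK, ATF4 and CHOP targets (0.82), ER chaperones (0.63) and amino acid supply (0.60) lie to the right, and those of replication (−0.60), mitosis (−0.52) and sterol synthesis (−0.47) to the left.

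Other ER-linked lists moved less. In ER calcium handling 11 of 29 were higher and 5 lower (3 without experiment 3), with a median of 0.04. Atp2a2, the calcium pump of the ER, rose by 0.59 ± 0.04, Saraf, which restrains calcium entry, rose by 0.90, and Itpr3, a calcium release channel, fell by 0.65. In autophagy 13 of 37 were higher and 4 lower (2 without experiment 1), with a median of 0.08. For comparison, 13.4% of all genes were higher and 16.6% lower. Atg13, of the kinase complex that starts autophagy, was at 11.24, 11.09 and 11.27 with tunicamycin and at 9.90, 9.80 and 9.86 without, and Sqstm1, a cargo receptor, at 12.89, 12.93 and 12.89 against 12.47, 12.36 and 12.41. Among reported targets of IRE1-dependent mRNA decay, 5 of 12 were lower and 1 higher, and without experiment 1 3 were lower. Hgsnat, a lysosomal enzyme, fell by 0.65, whereas Rpn1, a subunit of the oligosaccharyltransferase, rose by 0.62.

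At 5 h under doxycycline fewer genes had changed. Against doxycycline alone, 1304 genes were higher (6.54%) and 1109 lower (5.56%) at 5 h, and 28 differed by at least 2-fold. Between 12 h and 5 h under doxycycline, 2167 genes were higher (10.9%) and 3079 lower (15.4%) at 12 h. These comparisons share arrays with each other and with the 12 h comparison, so their values are set side by side. Of the PERK, ATF4 and CHOP targets 16 of 35 were higher at 5 h (median 0.17) and 27 at 12 h. Of the ER chaperones 6 of 29 were higher at 5 h (median 0.05) and 24 at 12 h. Of the COPII, COPI and Golgi genes 4 of 52 were higher at 5 h and 44 at 12 h. Chac1 was 1.24 above its starting level at 5 h and 1.86 at 12 h, and Ddit3 was 1.32 and 2.95 above. Ero1b was 0.08 above at 5 h (adjusted p = 0.739), and 3.42 at 12 h, and Sdf2l1 was 0.05 and 1.67 above. Pdia4 was at its starting level at 5 h, with a change of −0.00, and 0.88 above at 12 h. Xbp1 stood between, with 0.52 at 5 h and 1.31 at 12 h.

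Some genes moved one way at 5 h and stood elsewhere at 12 h. Slc39a10, a zinc importer of the plasma membrane, fell by 1.85 at 5 h and was still lower at 12 h (−1.22 ± 0.08), with levels of 9.08, 9.36 and 9.39 against 10.53, 10.40 and 10.57. Its level at 12 h was 0.63 above that at 5 h. Mt2, a zinc-binding metallothionein, was 1.36 higher at 5 h and 0.69 higher at 12 h. Id3, an inhibitor of helix-loop-helix factors, was 1.49 higher at 5 h and 0.47 higher at 12 h, and Smad7, an inhibitor of TGF-β signalling, 1.18 and 0.68. Mc1r, the melanocortin receptor, was 0.42 higher at 5 h and changed by −1.03 at 12 h. Mlph, which ties melanosomes to their motor, was 0.61 higher at 5 h and changed by −0.59 at 12 h.

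**Figure D3:**
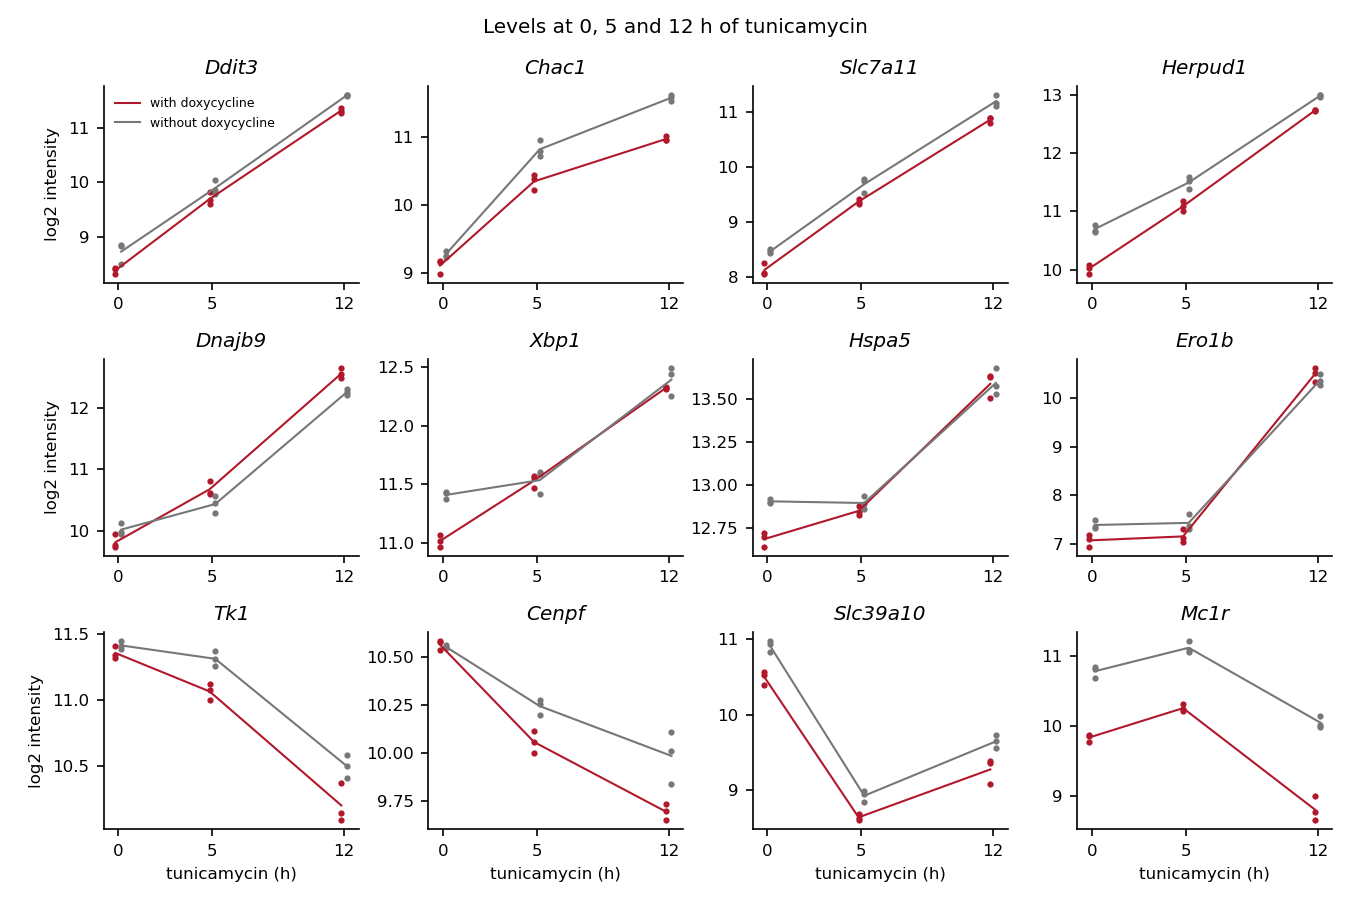
Log2 level (y axis) at 0, 5 and 12 h of tunicamycin (x axis) of 12 genes, with doxycycline in red and without it in grey; points are arrays and lines join the means of 3. Ddit3, Chac1, Slc7a11 and Herpud1 are already above their start at 5 h, Ero1b rises by 0.08 to 5 h and by 3.42 to 12 h, and Slc39a10 is lowest at 5 h.

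Genes of DNA replication and mitosis fell. In the replication list 45 of 49 genes were lower and 0 higher, with a median of −0.60 and of −0.60, −0.52 and −0.60 within the 3 experiments. Tk1, a thymidine kinase of S phase, was at 10.09, 10.37 and 10.15 with tunicamycin and at 11.41, 11.32 and 11.34 without, a 2.22-fold fall (adjusted p = 1.36e-10). E2f2, a factor that drives S-phase genes, was at 7.87, 7.86 and 7.71 against 8.92, 8.84 and 8.96, and Mcm3, of the replicative helicase, at 9.66, 9.65 and 9.54 against 10.60, 10.59 and 10.61. The treated arrays of all 3 genes were below all those with doxycycline alone. Uhrf1, Lig1 and Orc1, which act in maintenance methylation, ligation and origin licensing, changed by −1.04, −1.03 and −1.03. Of 47 mitotic genes 45 were lower and 0 higher (median −0.52). Cenpf, a kinetochore protein, was at 9.70, 9.73 and 9.65 against 10.53, 10.58 and 10.57 (adjusted p = 9.93e-10), and Ccnf, a cyclin that is part of a ubiquitin ligase, fell by 1.11 ± 0.08. At 5 h 44 of the mitotic genes and 25 of the replication genes were already lower, with medians of −0.29 and −0.21. In the list of cell cycle inhibitors and p53 targets 8 of 31 were higher (3 without experiment 3) and 7 lower, beside 13.4% and 16.6% of all genes. Gadd45a, which restrains G2/M, was at 9.25, 9.57 and 9.43 against 7.96, 7.95 and 7.97, Sesn2, an inhibitor of TORC1, rose by 0.96, and Cdkn2c, an inhibitor of CDK4 and CDK6, fell by 0.69.

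Sterol synthesis fell as a list: 20 of 23 were lower and 1 higher (median −0.47). Hsd17b7, an enzyme of the late pathway, was at 8.98, 9.26 and 8.94 with tunicamycin and at 10.31, 10.30 and 10.27 without (log2 change −1.24 ± 0.09 SE, adjusted p = 2.73e-09). Idi1, which makes an isoprenoid building block, was at 9.53, 9.20 and 9.32 against 10.37, 10.52 and 10.38, and Insig1, the ER protein that holds back SREBP, at 10.48, 10.53 and 10.57 against 11.49, 11.42 and 11.50. No treated array of these genes reached an untreated one. Nsdhl (−0.91), Stard4 (−0.89) and Dhcr7 (−0.81) followed. The exception was Mvd, the mevalonate pathway decarboxylase, which averaged 9.56 against 8.79 and rose by 0.77; it was picked out after its value was seen. In fatty acid and lipid synthesis 13 of 25 were lower and 3 higher (median −0.31), and the 3 became 0 without experiment 3. Elovl6, which extends palmitate, was at 9.70, 9.84 and 9.83 against 11.02, 11.04 and 10.96 (−1.22 ± 0.06, adjusted p = 3.08e-11), and Fasn, the fatty acid synthase, fell by 0.61 ± 0.06.

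Cytosolic chaperones fell in part, and the counts that follow stand beside 13.4% higher and 16.6% lower among all genes. Of the cytosolic heat shock chaperones 15 of 27 were lower and 3 higher (median −0.18). The 15 became 9 without experiment 1 and 7 without experiment 3, and the 3 became 1 without either. Hsph1, an exchange factor for HSP70, was at 10.28, 10.32 and 10.28 with tunicamycin and at 10.92, 10.92 and 11.08 without (−0.68 ± 0.07, adjusted p = 1.9e-07). Dnajb1, a co-chaperone of HSP70, fell by 0.55. Of the proteasome subunits 16 of 39 were lower and 0 higher, by small amounts (median −0.07), and 9 were lower with array medians set equal, 10 were lower without experiment 1 or experiment 2, and 7 without experiment 3. The cytosolic ribosomal proteins had 2 of 61 lower and 1 higher, with a median change of −0.00. The 2 became 0 without experiment 1 and 6 with a trend and robust variance, and the 1 became 3 with that variance and without experiment 2.

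Metal transport genes were mixed, beside 13.4% of all genes higher and 16.6% lower. Of the zinc transporters and metallothioneins 13 of 28 were higher and 3 lower, and the 3 became 1 when any experiment was left out. Slc39a7, which releases zinc from the ER, rose by 0.90, and Slc30a5, which loads zinc into the secretory pathway, by 0.75. Of 21 iron genes 6 were higher and 6 lower. Tfrc, the transferrin receptor, was at 9.70, 9.71 and 9.74 with tunicamycin and at 10.80, 10.81 and 10.80 without, a fall by 1.09 ± 0.08 (adjusted p = 1.96e-09), and at 5 h it differed from doxycycline alone by 0.02. Steap1, a metalloreductase of the plasma membrane, rose by 2.30.

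Death genes changed in both directions, as did genes at large, of which 13.4% were higher and 16.6% lower. Of 27 caspases, death receptors and their regulators 5 were higher and 9 lower (median −0.05). Casp4, the caspase that senses bacterial lipopolysaccharide, was at 7.95, 8.11 and 8.33 with tunicamycin and at 6.83, 7.07 and 6.91 without (1.20 ± 0.10, adjusted p = 2.04e-08). Casp6, an executioner caspase, was at 8.39, 8.60 and 8.25 against 9.64, 9.52 and 9.60 (−1.17 ± 0.10, adjusted p = 2.01e-08). Casp12, which lies at the ER in mouse cells, was within the range of the silent genes on all 6 arrays, at 4.99, 4.78 and 4.82 against 4.87, 4.95 and 4.84, and the groups overlapped. Cflar, an inhibitor of caspase 8, was at 9.63, 9.49 and 9.61 against 8.69, 8.55 and 8.67, while Casp8 fell by 0.46. In the BCL2 family 2 of 17 were higher (1 when any experiment was left out) and 4 lower. Bcl2l11, which encodes BIM, a killer protein that CHOP can induce, was lower with tunicamycin, at 7.10, 7.06 and 7.04 against 7.73, 7.90 and 7.79 (−0.74 ± 0.09, adjusted p = 3.23e-06). Bcl2l1, which encodes the survival protein BCL-XL, was 0.25 higher at 5 h and changed by −0.41 at 12 h.

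Genes of the melanocyte lineage fell in part. Of its transcription factors and receptors 8 of 16 were lower and 0 higher (median −0.14), and 5 were lower without experiment 3. Mc1r was at 8.65, 8.99 and 8.77 with tunicamycin and at 9.87, 9.77 and 9.85 without (−1.03 ± 0.07, adjusted p = 2.83e-09), Sox10, a lineage factor, at 10.46, 10.40 and 10.35 against 10.98, 10.98 and 10.90 (−0.55 ± 0.05, adjusted p = 4e-08). Erbb3, a receptor of the EGF receptor family, fell by 0.69. Mitf, the lineage's central regulator, changed by −0.19 ± 0.06 (adjusted p = 0.0178), and this call was lost with array medians set equal (adjusted p = 0.0888) and with the mean of its probe sets (adjusted p = 0.806), among others. Of the pigment and melanosome genes 11 of 38 were lower and 6 higher, and the 6 became 3 without experiment 1 and 2 without experiment 3. Among all genes the shares were 16.6% lower and 13.4% higher. Pmel, which forms the fibrils of the melanosome, was at 11.98, 11.99 and 12.02 against 12.47, 12.42 and 12.48. The levels of Tyrp1, an enzyme of melanin synthesis, averaged 13.61 with tunicamycin and 13.58 without (adjusted p = 0.722), and those of Tyr, the enzyme of the first step, 6.73 with and 6.81 without (adjusted p = 0.618). Slc45a2, a melanosome transporter, fell by 0.57.

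The largest falls were smaller than the largest rises and most lay outside the lists. Kank4, of a family of adaptor proteins at adhesions, was at 7.86, 7.90 and 7.74 with tunicamycin and at 9.24, 9.20 and 9.23 without, a 2.63-fold fall (log2 change −1.39 ± 0.08 SE, adjusted p = 1.09e-10). Map2k6, a kinase that activates p38, was at 7.01, 7.05 and 6.84 against 8.25, 8.18 and 8.22, and Rassf2, a RAS-binding protein, at 8.68, 8.77 and 8.69 against 10.02, 9.91 and 9.90. Every treated array was lower than every array with doxycycline alone in these genes. B4galt5, a galactosyltransferase of the Golgi, fell by 1.18, Mknk2, a kinase of the initiation factor eIF4E, by 1.20 and Klhl30 by 1.35. In total 23 genes passed from above the silent level on all doxycycline arrays to at or below it on all 12 h arrays, and 11 passed the other way. Besides Ogn, Hey2 and Elovl3, those that passed upward included Cyp4b1, a cytochrome P450 (6.63 against 5.83), Fibin (6.42 against 5.71) and Zfp950 (6.31 against 5.77).

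Several other lists had single strong members, with counts to be read beside the 13.4% higher and 16.6% lower of all genes. Among hypoxia-linked genes 8 of 36 were higher and 14 lower (9 without experiment 1): Vegfa, the angiogenic growth factor, was at 10.97, 10.90 and 11.01 with tunicamycin and at 10.03, 9.81 and 10.02 without, and Ddit4, an inhibitor of TORC1, rose by 1.02. Of 46 matrix genes 8 were higher and 11 lower (5 without experiment 3), with Lama4, a laminin chain, at 11.65, 11.71 and 11.77 against 10.54, 10.55 and 10.59. Cox6a2, the muscle form of a cytochrome oxidase subunit, was at 9.37, 9.53 and 9.70 against 8.08, 7.78 and 7.93, in a list of 87 respiratory genes with 3 higher (6 with array medians set equal) and 17 lower (11 without experiment 3). Of 30 inflammatory and NF-κB genes 9 were higher and 0 lower, and the 9 became 5 without experiment 1 and without experiment 3, and the 0 became 2 without experiment 2. Tnfaip2 (0.86), Nfkb2 (0.53) and Relb (0.52) were the largest of the rises.

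The same 12 h of tunicamycin without doxycycline, tunicamycin 12 h against vehicle, raised 2365 genes (11.9%) and lowered 3151 (15.8%). The 2 comparisons share no array. Of the genes called under doxycycline 71.9% were also called in the same direction without it, as were 77.9% of the genes called without it, and 30 genes were called in opposite directions. Across all genes the changes correlated at r = 0.856, as a description in which genes are not independent. Slc7a11 was 2.73 higher both with and without doxycycline. Ddit3 was 2.95 higher with doxycycline and 2.89 without, and Ppp1r15a 2.79 and 2.96.

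The difference between both responses was tested as an interaction, and 367 genes passed: the change was higher under doxycycline in 198 (0.993%) and lower in 169 (0.848%). With array medians set equal 317 passed, 230 higher and 87 lower. Without experiment 1 47 passed and without experiment 3 39, so the number rests on both experiments. Of the 367, 156 were called under doxycycline with a larger fitted change than without it in the same direction, and 71 with a smaller one. A further 84 were called under doxycycline with a fitted change of the other sign without it, and 56 were not called under doxycycline. The change without doxycycline did not have to pass for these counts, so some of the 84 had little change there. In the list of ER chaperones 8 of 29 had a larger change under doxycycline and 0 a smaller one, among them Creld2 (difference of changes 0.47), Fkbp11 (0.63) and Hyou1 (0.42), all 3 of which lost the call without experiment 1 or without experiment 3. The 8 became 1 without experiment 1, 6 without experiment 2 and 0 without experiment 3. In the list of PERK, ATF4 and CHOP targets 1 of 35 was larger and 5 smaller, and without experiment 3 0 passed either way, without experiment 1 0 and 1. In that of mitosis 8 of 47 were lower and 0 higher, and the 8 became 0 without experiment 1 or experiment 3 and 1 without experiment 2.

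Itga5, the integrin chain that pairs with beta 1 to bind fibronectin, had the largest positive difference among genes above the silent 95th percentile in all 4 groups. It was at 9.0, 9.08 and 9.08 with doxycycline and tunicamycin and at 7.02, 6.98 and 6.76 with doxycycline alone, and averaged 6.34 with tunicamycin alone and 6.39 in vehicle cells. The rise was 2.13 ± 0.11 under doxycycline, against a change of −0.06 without it (adjusted p = 0.795), a difference of 2.19 (adjusted p = 1.13e-07). Ogn averaged 5.33 with tunicamycin alone and 4.94 in vehicle cells, and its fitted changes differed by 3.23 (adjusted p = 3.45e-10). As 3 of its 4 group means lay within the silent range, the size of that difference is not fixed. In these 4 groups both genes were highest on the arrays that had both agents. Vdr, the vitamin D receptor, rose by 1.04 ± 0.08 under doxycycline and differed by −0.21 without it (adjusted p = 0.0698), with a difference of 1.25 (adjusted p = 5.32e-06). Gata3, a transcription factor, rose by 1.89 against 0.69 (difference 1.20, adjusted p = 7.92e-07). Ptprd, a receptor phosphatase, rose by 1.10 against −0.01 (difference 1.11, adjusted p = 3.22e-08), and Gsta3, a glutathione transferase, by 0.91 against a level of 6.18 in both groups without doxycycline (difference 0.91, adjusted p = 3.07e-07). Tnfrsf19, a receptor of the TNF receptor family, and Hoxa11, a homeobox factor, had differences of 0.91 and 0.90. The interaction of these 8 genes passed in every alternative run.

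**Figure D4:**
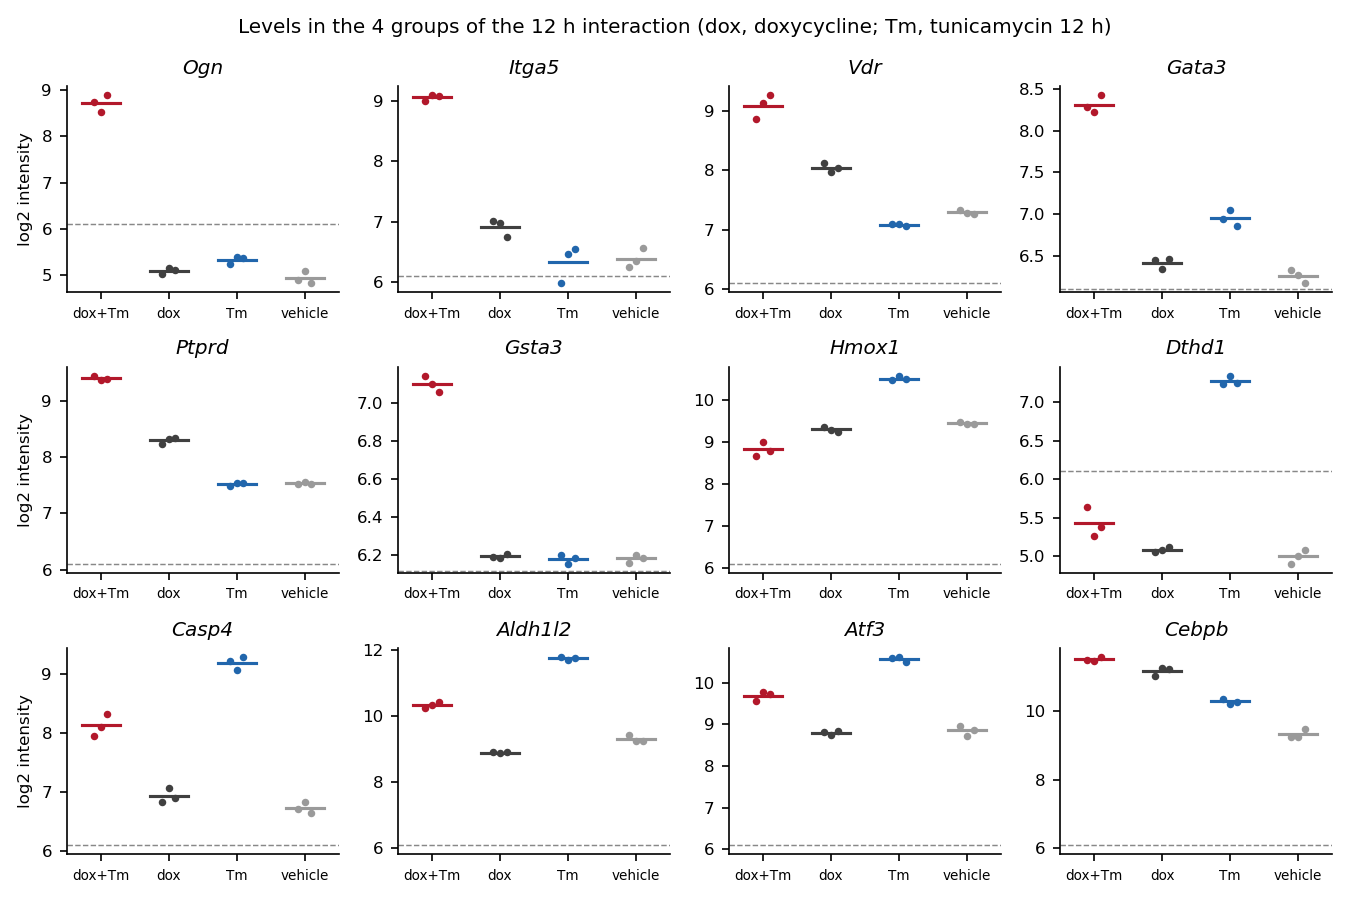
Log2 level (y axis) on each array of 12 genes with an interaction, in cells with doxycycline and tunicamycin for 12 h, doxycycline alone, tunicamycin for 12 h alone and vehicle (x axis, left to right); points are arrays and bars are means of 3. Ogn, Itga5, Vdr, Gata3, Ptprd and Gsta3 are highest with both agents, and Hmox1, Dthd1, Casp4, Aldh1l2 and Atf3 with tunicamycin alone.

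Other genes responded less under doxycycline. Hmox1, the heme oxygenase of oxidative stress, was at 8.68, 9.02 and 8.79 with doxycycline and tunicamycin and at 9.37, 9.31 and 9.25 with doxycycline alone, a fall by 0.48 ± 0.07 (adjusted p = 3.67e-05). Without doxycycline it averaged 10.52 with tunicamycin and 9.46 in vehicle cells, and the changes differed by −1.53 (adjusted p = 7.15e-08). Dthd1, a protein with a death domain, was at 5.63, 5.26 and 5.38 against 5.05, 5.08 and 5.12 under doxycycline, both within the silent range, a change of 0.34 that became 0.22 (adjusted p = 0.0983) without experiment 1. It averaged 7.28 with tunicamycin alone and 4.99 in vehicle cells, a difference of changes of −1.94 (adjusted p = 2.6e-08). Casp4 rose by 1.20 under doxycycline and by 2.45 without it (difference −1.26, adjusted p = 4.52e-05). Aldh1l2 rose by 1.45 and by 2.45 (difference −1.0, adjusted p = 2.33e-05), Isg20, an exonuclease induced by interferon, by 1.31 and by 2.13 (difference −0.83, adjusted p = 0.000419). Atf3 rose by 0.89 and by 1.71 (difference −0.82, adjusted p = 0.000535), a call that was lost without experiment 3 (adjusted p = 0.0732). Lcn2, an iron-carrier binding protein, overlapped between groups under doxycycline, at 5.95, 6.08 and 6.16 against 5.72, 5.87 and 5.96, and averaged 7.13 and 5.82 without it (difference −1.10, adjusted p = 1.29e-05). Ptgir, the prostacyclin receptor, differed by −0.10 under doxycycline (adjusted p = 0.322) and rose by 0.92 without it (difference −1.02, adjusted p = 4.26e-06). Nat8f5 rose by 1.62 without doxycycline and differed by 0.22 under it (adjusted p = 0.1), and belongs to a family of near-identical copies that its probes may not separate.

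Cebpb itself was at 11.51, 11.47 and 11.58 with doxycycline and tunicamycin and at 11.02, 11.27 and 11.24 with doxycycline alone, a rise of 0.34 ± 0.07 (adjusted p = 0.000876). Without doxycycline it averaged 10.29 with tunicamycin and 9.33 in vehicle cells, a rise of 0.96. The rises differed by −0.62 (adjusted p = 0.00247), a call lost without experiment 1 (adjusted p = 0.0748) and without experiment 3 (adjusted p = 0.0545). Cebpg, a partner of ATF4 in the same family, rose by 0.96 under doxycycline. Pmel fell by 0.46 under doxycycline and changed by 0.02 without it (difference −0.48, adjusted p = 0.00154), and Mlph had a difference of −0.51 (adjusted p = 0.00336); both calls were lost without experiment 1 or without experiment 3.

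**Figure D5:**
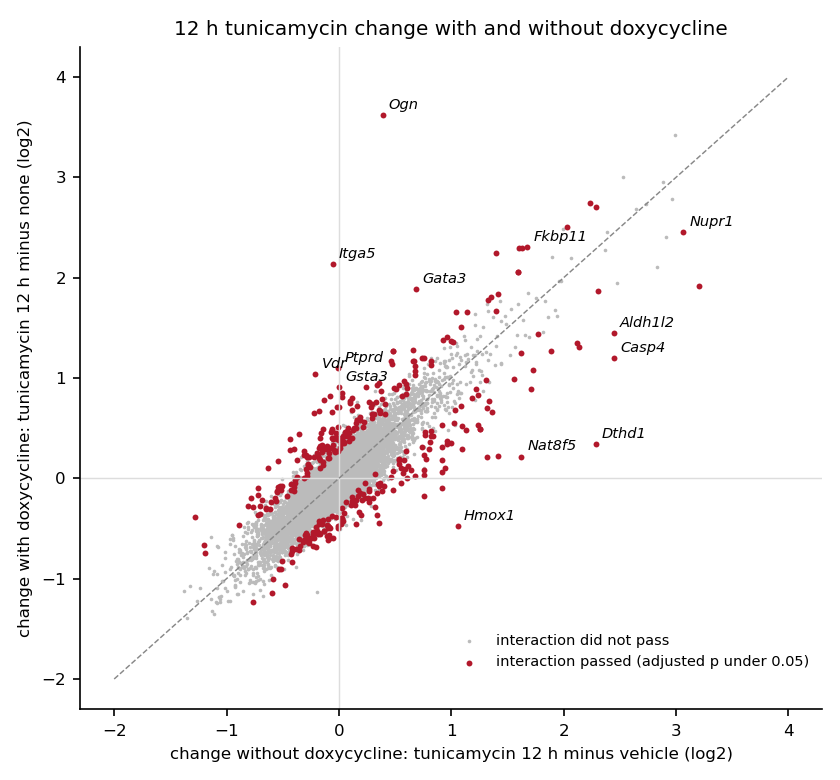
Log2 change after 12 h of tunicamycin with doxycycline (y axis) and without it (x axis) for all 19938 genes; red points are the 367 genes whose changes differed in the interaction test, and the dashed line marks equal changes. Ogn and Itga5 lie far above the line, with 3.62 and 2.13 against 0.39 and −0.06, and Dthd1 and Hmox1 far below it, with 0.34 and −0.48 against 2.28 and 1.06.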

How the data were processed

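The authors deposited log2 intensities of 35557 probe sets on 18 one-colour Affymetrix arrays, made with RMA and Partek per the submitters' processing notes. Version and settings are not given in the sources used here. RMA understates changes of dim probe sets. Per the labels' protocols, total RNA was labelled with the Ambion WT Expression and Affymetrix WT labelling kits. Of the probe sets, 21789 had 1 symbol, 1621 several and 12147 none, and 0 symbols needed an update. The brightest probe set was kept for each gene (999 genes had several), leaving 19938.

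The deposited values were fitted without further normalization by limma (3.58.1, R 4.3.3) with 6 group means over 18 arrays (12 residual and 5.99 prior degrees of freedom). P-values were adjusted by Benjamini and Hochberg's method over all genes. No covariate was used. The number of arrays limits the precision. In data simulated for the 12 h comparison under doxycycline, on 19938 genes with 200 changed, 38% of changes of 0.3, 96% of 0.6 and 100% of 1 and 2 were found, with 9 false calls. The simulation used independent normal noise and far fewer changed genes than the 5971 that passed in the data. The adjusted p threshold depends on the share of changed genes, so these rates do not carry over to the real comparison.

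Same-numbered arrays were taken to come from the same experiment, a pairing that the labels do not state. Over 45 same-number pairs, deviations from the group means correlated at a median r of 0.038 (−0.503 to 0.496). Between the 12 h and no-tunicamycin groups under doxycycline the median was −0.098 over 3 same-number pairs, against 0.066 for other numbers. A fit with the experiment as a block was an alternative, beside array weights, trend and robust variance, equal medians, quantile normalization, mean of probe sets, dim genes left out, other thresholds and each array or experiment left out.

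The comparison, its lists and motifs were chosen with earlier results of these data known, so lists are given by counts and medians with no test. Named genes are the 15 largest rises and falls and the 8 largest interactions each way that passed in the same direction in all 3 experiments. To these were added the 8 largest rises out of the silent range, and up to 6 members of each of 48 lists with the largest passing change. Cebpb, Ddit3, Atf4, Atf3, Trib3, Hspa5, Dnajb9, Xbp1, Eif2ak3, Ern1, Atf6, Bcl2l11, Casp12, Mitf, Slc39a10 and Tfrc were named whatever their change. Predicted genes, small RNAs, receptors of smell and histones were left out. Motifs were searched by letters on both strands in RefSeq promoters (250 bases before to 50 after the start, GRCm38.p6), found for 248 of 302 named genes.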

Additional observations from a re-analysis of the deposited data

Results flagged for a closer look

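For 42 genes described in the report the response to 12 h of tunicamycin differed with and without doxycycline in the interaction test. The value given for each is the log2 change under doxycycline minus that without it. The positive differences that passed in every alternative run were those of Ogn (3.23, with 3 of 4 group means in the silent range), Itga5 (2.19), Vdr (1.25), Gata3 (1.20), Ptprd (1.11), Gsta3 (0.91), Tnfrsf19 (0.91) and Hoxa11 (0.90). The negative ones were those of Dthd1 (−1.94), Hmox1 (−1.53), Nat8f5 (−1.41), Casp4 (−1.26), Lcn2 (−1.10), Ptgir (−1.02), Aldh1l2 (−1.0) and Isg20 (−0.83).

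Genes of the secretory pathway that moved further under doxycycline were Fkbp11 (0.63), Pdia5 (0.61), Dnajb9 (0.50), Sec24d (0.48), Creld2 (0.47), Alg5 (0.46), Pdia6 (0.45), Selenos (0.45), Txndc11 (0.44), Hyou1 (0.42), Herpud1 (0.42), Spcs3 (0.40) and Pgm3 (0.35). All of these no longer passed without experiment 3, and all but Pdia5 no longer passed without experiment 1. Steap1 (0.69) and Fibin (0.42) no longer passed without either experiment, and Cyp4b1 (0.68) without experiment 1.

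Stress and amino acid genes that moved less far under doxycycline were Atf3 (−0.82), Nupr1 (−0.61), Chac1 (−0.45) and Slc6a9 (−0.33), and Cebpb itself had a difference of −0.62. Pigment and lineage genes had differences of −0.51 for Mlph, −0.48 for Erbb3, −0.48 for Pmel and −0.32 for Sox10. The sterol gene Nsdhl had a difference of −0.37. None of these 10 passed without experiment 3, and Atf3 alone of them passed without experiment 1.

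Outside the genes, 406 probe sets without a gene symbol were at least 2-fold higher after 12 h of tunicamycin than with doxycycline alone, a signal in probe sets that no comparison of the report uses.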

How the results depend on the processing

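The count of genes changed at 12 h under doxycycline (5971) lay between 4078 and 5862 when 1 array or experiment was left out, and was 6055 with the replicate block, 6804 with array weights and 5637 with array medians set equal. At a fold of at least 2, 215 genes passed. The interaction count (367) became 777 with array weights, 567 with a trend and robust variance, 13 at a fold of at least 2 and 401 with the replicate block. It ranged between 39 and 472 when an array or experiment was left out, highest without doxycycline and tunicamycin 12 h array 2, with 39 without experiment 3, 47 without experiment 1, 214 and 238 without doxycycline array 1 or 3, 224 without doxycycline and tunicamycin 12 h array 3, 231 and 234 without vehicle array 1 or 3, and 239 without tunicamycin 12 h array 3. For 12 h against 5 h under doxycycline (5246), 163 passed at a fold of at least 2, 5360 with the replicate block, and 3333 to 5067 in fits that left something out, lowest without experiment 3. For 5 h under doxycycline (2413), these were 28, 2491 and 941 to 2015, with 1151 without experiment 1 and 941 without experiment 3. For 12 h without doxycycline (5516), these were 187, 5630 and 3617 to 5359, lowest without experiment 3. The cause of these moves was not tested, except that a fold threshold reduces calls by construction.

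Over the 302 genes picked by the naming rule and the alternatives run, 5012 of 5132 values kept their direction and call, 116 no longer passed and 4 changed sign. The 4 are of Casp12, which passed in none of them: 0.010 with array medians set equal, 0.0095 without doxycycline array 2, 0.020 without doxycycline and tunicamycin 12 h array 2 and 0.053 without experiment 2, against −0.024, with a range of −0.099 to 0.053 over the fits that left something out. For 52 genes with an interaction, 1014 of 1196 values kept the call and 182 no longer passed. Among the 302 genes and their interactions the replicate block changed the call of Rpl37a only, which the report does not describe (adjusted p = 0.0552). Levels near those of the silent genes limit what can be read from Ogn, Hey2, Elovl3, Dthd1, Lcn2, Nat8f5, Fibin, Cyp4b1 and Zfp950, and array intensities give no depth.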

Other observations

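Probe sets that carry no gene symbol in the probe table used here also responded. Of 12147 such probe sets 1504 passed the threshold after 12 h of tunicamycin under doxycycline (12.4%), 1063 of them higher and 441 lower. Those with an ID number below the lowest one that carries a gene numbered 6618, and 391 of these were at least 2-fold higher and 4 at least 2-fold lower. At 5 h under doxycycline 21 were at least 2-fold higher and 2 lower. Without doxycycline at 12 h, 331 were at least 2-fold higher and 10 lower. What these probe sets match is not used here.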
